A study of Mus musculus with 12 samples.

Results

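Hox genes encode homeodomain transcription factors that give cells along the body axis their regional identity. They were taken here as every gene whose symbol on the array is Hox followed by a cluster letter, a to d, and a number, with the probe of highest mean kept for each. This gave 33 genes out of 19505 named on a table of 22206 probes, each with 1 probe, and all 33 Entrez numbers gave the same symbol in RefSeq. RefSeq lists 39 protein-coding Hox genes of this form, and the other 6 were not analysed here. The 33 divide into 8 of 11 Hoxa genes, 9 of 10 Hoxb genes, 9 of 9 Hoxc genes and 7 of 9 Hoxd genes.

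The study profiled colon of healthy male mice aged 12 to 16 weeks on Affymetrix arrays, with total RNA from wild type mice, mice lacking LAO1, mice lacking IL4i1, and mice lacking both (double knockout). LAO1 and IL4i1 are L-amino acid oxidases, enzymes that deaminate amino acids and release hydrogen peroxide, and the stated aim was to find what underlies colonic inflammation in the double knockout. Each genotype has 3 arrays. The labels say that 4 mice were drawn per genotype, but not which mouse or how many mice an array holds, which stretch of the colon was taken, the strain, how or in which cells the genes were deleted, or whether the wild type mice were littermates, so the p-values reflect only how far these 12 samples spread, and that spread may be technical.

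Mammalian Hox genes lie in 4 clusters. Within each, gene order follows the order of expression along the body, so that low-numbered genes are active furthest forward and genes of paralog groups 11, 12 and 13 mark the hindmost structures, a relation called collinearity. In the gut, the mesoderm carries most of the collinear pattern, while some posterior genes, above all Hoxb13, are known from the epithelium of the distal colon, and the caudal factors Cdx1 and Cdx2, the retinoid pathway and the Polycomb proteins set and hold Hox expression domains.

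Promoters are shown for 4 genes named in the results below for which a RefSeq promoter was given. They are from build GRCm38.p6, the 250 bases before the transcription start, 5′ to 3′. No promoter was given for Hoxb13, Hoxb6, Hoxb5 or Hoxb3. Hoxd10 and Hoxd11 are neighbours whose readings varied together over the arrays. Those readings were all below the background level described further on, and the 2 gene models overlap in RefSeq. Hoxa11 was the Hox gene with the lowest correlation to Hoxb13, and Gal3st2b was the gene most like Hoxb13. Hoxd11 lies at chr2:74679308-74679557 on the plus strand (the more upstream of 2 starts), Hoxd10 at chr2:74691641-74691890 on the plus strand, Hoxa11 at chr6:52245811-52246060 on the minus strand and Gal3st2b at chr1:93918187-93918436 on the plus strand. Capitals mark the caudal element, the letters TTTATG read on either strand, here seen as its complement CATAAA.
Hoxd11: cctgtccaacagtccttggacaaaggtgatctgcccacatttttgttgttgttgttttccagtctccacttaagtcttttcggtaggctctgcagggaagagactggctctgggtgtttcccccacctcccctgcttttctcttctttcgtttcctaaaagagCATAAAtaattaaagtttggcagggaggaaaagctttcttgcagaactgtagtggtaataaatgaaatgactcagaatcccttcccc
Hoxd10: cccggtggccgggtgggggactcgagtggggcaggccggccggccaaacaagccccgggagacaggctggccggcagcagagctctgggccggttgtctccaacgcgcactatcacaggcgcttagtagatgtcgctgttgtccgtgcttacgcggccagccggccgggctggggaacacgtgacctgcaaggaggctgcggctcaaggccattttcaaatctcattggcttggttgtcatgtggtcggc
Hoxa11: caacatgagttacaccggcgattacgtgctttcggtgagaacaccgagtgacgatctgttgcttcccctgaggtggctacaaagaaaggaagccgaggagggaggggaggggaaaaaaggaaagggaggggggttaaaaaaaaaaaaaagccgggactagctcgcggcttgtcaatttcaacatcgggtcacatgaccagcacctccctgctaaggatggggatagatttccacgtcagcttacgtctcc
Gal3st2b: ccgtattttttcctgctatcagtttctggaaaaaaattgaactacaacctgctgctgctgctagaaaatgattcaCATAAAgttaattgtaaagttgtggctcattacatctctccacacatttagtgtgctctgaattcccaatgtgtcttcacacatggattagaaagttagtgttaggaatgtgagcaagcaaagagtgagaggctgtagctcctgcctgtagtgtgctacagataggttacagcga

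The caudal element stood at bases 87 to 82 before the start in Hoxd11 and at bases 175 to 170 in Gal3st2b, on the minus strand in both. Hoxd10 and Hoxa11 held none in this window. Of all 32851 promoters in the RefSeq table, 10.76% held these letters in the same window. A second motif, CCAATAAA, the site known for Hoxb13, which neither contains nor is contained in the first, was searched on both strands and was in 1.02% of all promoters and in none of the 4 shown. Promoters were given for 17 of the 33 measured Hox genes (19 starts), of which 2 starts, among them that of Hoxd11 above, held the caudal element. These matches describe letters and no more.

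Because the table holds log2 values without detection calls, a reading was called above background where it exceeded the 95th percentile of the 1091 olfactory receptor probes of its array, a level that ran from 4.55 to 5.02 over the 12 arrays. By this measure 10 Hox genes were above background on all 12 arrays: Hoxa2, Hoxa3, Hoxa4, Hoxa5, Hoxa10, Hoxa13, Hoxb3, Hoxb7, Hoxc9 and Hoxd8. A further 7 were above it on some arrays, namely Hoxb2 and Hoxb9 on 11, Hoxb5 on 9, Hoxb6 on 8, Hoxb13 on 6, Hoxa11 on 5 and Hoxa6 on 3. The other 16 were above it on no array: Hoxb1, Hoxb8, Hoxc4, Hoxc5, Hoxc6, Hoxc8, Hoxc10, Hoxc11, Hoxc12, Hoxc13, Hoxd1, Hoxd9, Hoxd10, Hoxd11, Hoxd12 and Hoxd13. Of all probes, 49.8% were above background on every array, and of the olfactory receptor probes 1.56%. The count of 10 became 5 with the 99th percentile. Between 12 and 16 Hox genes were above background on each array.

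Counted by cluster, all 8 measured Hoxa genes were above background on at least some arrays, and 6 of them on all. In the Hoxb cluster 2 were above it on all arrays, 5 on some and 2 on none. The Hoxc and Hoxd clusters each had 1 gene above background on all arrays, Hoxc9 and Hoxd8, and the rest (8 and 6 genes) on none.

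**Figure D1:**
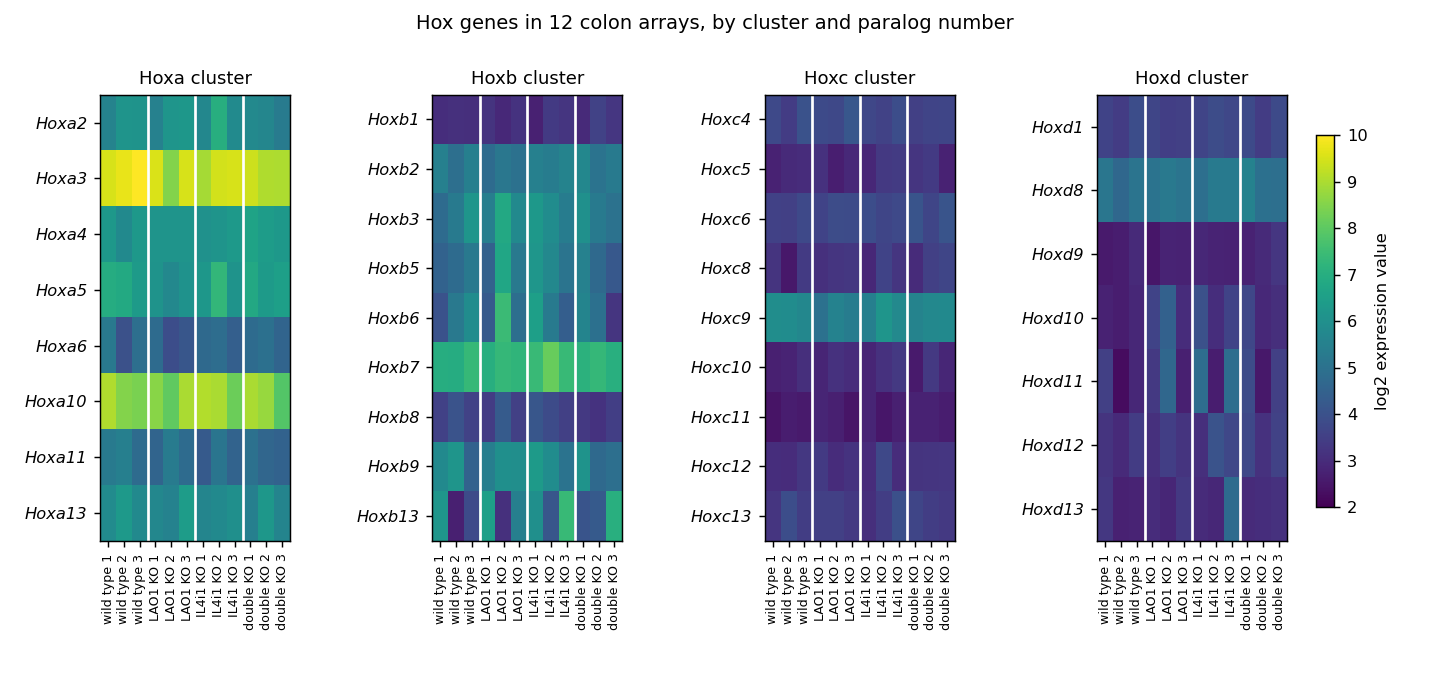
Log2 expression value (colour, from 2 to 10) of the 33 Hox genes, 1 panel per cluster, rows by paralog number, columns the 12 arrays with white lines between genotypes. Colours are to be compared along a row, not between probes. The rows of Hoxb13, Hoxb6 and Hoxd11 change colour from array to array inside each genotype.

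In the Hoxa cluster the SD over the 12 arrays ran from 0.21 for Hoxa4 to 0.45 for Hoxa5, where the median over probes brighter than background was 0.35. Hoxa3 read 9.51, 9.74 and 9.99 in wild type, 9.56, 8.50 and 9.51 in LAO1 knockout, 8.91, 9.45 and 9.52 in IL4i1 knockout and 9.38, 9.05 and 9.0 in double knockout. Hoxa3, known for its part in forming the thymus and parathyroid glands, had the highest reading of its cluster, which sets no order of RNA amounts between probes. Hoxa10 read 9.06, 8.50 and 8.40 in wild type, 8.59, 8.06 and 8.99 in LAO1 knockout, 9.09, 8.97 and 8.20 in IL4i1 knockout and 8.98, 8.77 and 7.87 in double knockout. The lowest Hoxa10 reading was in double knockout replicate 3, and all 4 genotypes overlapped.

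Hoxa2 read 5.58, 6.13 and 6.12 in wild type, 5.52, 6.17 and 6.22 in LAO1 knockout, 5.70, 7.02 and 5.84 in IL4i1 knockout and 5.78, 5.67 and 5.32 in double knockout. Hoxa4 read 6.25, 5.80 and 6.25 in wild type, 6.15, 6.15 and 6.14 in LAO1 knockout, 6.05, 6.14 and 6.34 in IL4i1 knockout and 6.65, 6.41 and 6.28 in double knockout. Hoxa5 read 6.96, 6.87 and 6.37 in wild type, 6.11, 5.74 and 6.07 in LAO1 knockout, 6.22, 7.29 and 6.11 in IL4i1 knockout and 6.84, 6.36 and 6.51 in double knockout. The 3 LAO1 knockout arrays lay below all wild type arrays for Hoxa5, a gene needed for lung and gut maturation, and Hoxa2 was highest in IL4i1 knockout replicate 2. For Hoxa4 the double knockout arrays lay above all wild type and all LAO1 knockout arrays.

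The posterior Hoxa genes follow. Hoxa13 read 5.86, 6.31 and 5.80 in wild type, 5.70, 5.54 and 6.41 in LAO1 knockout, 5.65, 5.80 and 5.97 in IL4i1 knockout and 5.45, 6.22 and 5.60 in double knockout. Hoxa13, required in the limb tips, the hindgut and the genital tract, was above background on all 12 arrays, and its SD over them was 0.31. Hoxa11 read 5.26, 5.46 and 4.80 in wild type, 4.57, 5.32 and 4.79 in LAO1 knockout, 4.25, 5.10 and 4.55 in IL4i1 knockout and 4.99, 4.65 and 4.53 in double knockout. Hoxa11, best known from limb, kidney and uterus, was near background throughout, and its 4 highest readings were on wild type replicates 1 and 2, LAO1 knockout replicate 2 and IL4i1 knockout replicate 2.

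The Hoxb cluster held 4 of the 5 Hox genes with the largest SD over the arrays (Hoxb13, Hoxb6, Hoxb5 and Hoxb9, with Hoxd11). Hoxb13 read 6.20, 2.71 and 3.82 in wild type, 6.53, 3.10 and 5.46 in LAO1 knockout, 5.98, 4.13 and 7.39 in IL4i1 knockout and 4.09, 4.28 and 7.06 in double knockout. Hoxb13 is the last gene of its cluster and a marker of the hindmost gut, tail and prostate. Readings were high on wild type replicate 1, LAO1 knockout replicates 1 and 3, IL4i1 knockout replicates 1 and 3 and double knockout replicate 3, the 6 arrays on which it exceeded background, so each genotype held at least 1 high and 1 low array. Replicate 2 was among the low arrays in every genotype, and whether the spread follows the replicate number was not tested. The genotype means were 4.24 ± 1.78 in wild type, 5.03 ± 1.76 in LAO1 knockout, 5.83 ± 1.63 in IL4i1 knockout and 5.14 ± 1.66 in double knockout (SD, n = 3 each). From the lowest to the highest array the readings spanned 25.6-fold, and within a genotype 11.2-fold in wild type, 10.8-fold in LAO1 knockout, 9.58-fold in IL4i1 knockout and 7.84-fold in double knockout. The low readings lie under the background level, so these are ratios of readings rather than of RNA. The SD over the 12 arrays was 1.57, and 0.405% of all probes had an SD as large. Differences between genotype means made up 14.0% of the variance of Hoxb13, and the SD within genotypes was 1.71. With 3 arrays per genotype, means differ by sampling alone, so a share of this size can arise without any genotype effect.

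Hoxb6, Hoxb5 and Hoxb3 stand further toward the front end of the cluster. Hoxb6 read 4.02, 5.22 and 5.88 in wild type, 4.28, 7.45 and 4.89 in LAO1 knockout, 6.52, 5.28 and 4.39 in IL4i1 knockout and 5.61, 4.96 and 3.23 in double knockout. Hoxb5 read 4.52, 4.80 and 5.22 in wild type, 4.47, 6.72 and 5.22 in LAO1 knockout, 6.19, 5.74 and 5.07 in IL4i1 knockout and 5.53, 4.73 and 4.20 in double knockout. Hoxb3 read 4.79, 5.31 and 6.18 in wild type, 5.42, 6.84 and 5.79 in LAO1 knockout, 6.25, 5.90 and 5.35 in IL4i1 knockout and 6.0, 5.31 and 5.01 in double knockout. All 3 were highest on LAO1 knockout replicate 2 and, within the other knockout groups, on replicate 1, and in wild type on replicate 3. Hoxb6, a gene of the trunk mesoderm, spanned 18.6-fold over the arrays, and 0.937% of all probes had an SD as large as its 1.14. Within genotypes it spanned 3.63-fold in wild type, 9.0-fold in LAO1 knockout, 4.38-fold in IL4i1 knockout and 5.21-fold in double knockout. The lowest reading of each genotype lay under background here too, so these are ratios of readings only. Its genotype means were 5.04 ± 0.943, 5.54 ± 1.68, 5.40 ± 1.07 and 4.60 ± 1.23 in the same order (SD, n = 3 each). Differences between genotype means made up 11.04% of its variance, against 27.6% for Hoxb5, which enteric nervous system precursors need, and 20.6% for Hoxb3. As for Hoxb13, shares of this size can arise without any genotype effect.

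**Figure D2:**
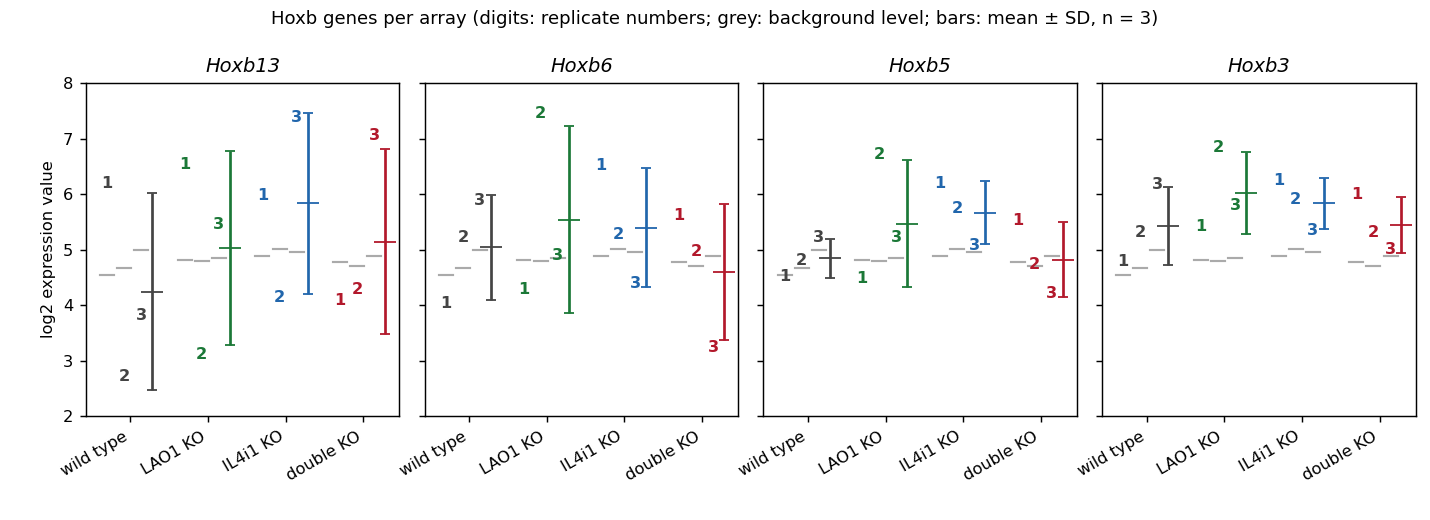
Log2 expression value of Hoxb13, Hoxb6, Hoxb5 and Hoxb3 on each array (digits are replicate numbers), with the mean ± SD of the 3 arrays of each genotype and, in grey, the background level of each array. In every genotype Hoxb13 lies above background on at least 1 array and below it on another, and the Hoxb13 mean of each genotype lies within the SD bars of the other 3.

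Hoxb9 read 5.79, 6.17 and 4.51 in wild type, 5.41, 5.97 and 5.96 in LAO1 knockout, 6.37, 5.89 and 5.05 in IL4i1 knockout and 6.11, 4.74 and 4.91 in double knockout. Hoxb7 read 6.98, 6.95 and 7.37 in wild type, 7.02, 7.34 and 7.24 in LAO1 knockout, 7.43, 8.15 and 7.39 in IL4i1 knockout and 7.13, 7.34 and 7.05 in double knockout. Hoxb2 read 5.49, 4.92 and 5.46 in wild type, 4.81, 5.16 and 4.97 in LAO1 knockout, 5.48, 5.35 and 5.59 in IL4i1 knockout and 5.70, 5.04 and 5.26 in double knockout. Hoxb9 was lowest on wild type replicate 3, while the 3 IL4i1 knockout arrays lay above all other arrays for Hoxb7 and above all LAO1 knockout arrays for Hoxb2, a gene of the hindbrain. Hoxb8 read 3.56, 4.06 and 3.59 in wild type, 3.42, 4.30 and 3.52 in LAO1 knockout, 4.15, 3.83 and 3.53 in IL4i1 knockout and 3.33, 3.17 and 3.48 in double knockout. Hoxb8 did not reach background on any array, and Hoxb1 ran from 2.74 to 3.59.

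Of the Hoxc genes, Hoxc9 read 5.92, 5.89 and 5.70 in wild type, 4.97, 5.55 and 5.35 in LAO1 knockout, 5.44, 6.18 and 5.77 in IL4i1 knockout and 5.59, 5.73 and 5.79 in double knockout. Hoxc9, a gene of the thoracic region, was lower on all LAO1 knockout arrays than on any wild type array. Hoxc6 read 3.55, 3.50 and 3.78 in wild type, 3.61, 3.86 and 3.84 in LAO1 knockout, 3.90, 3.67 and 3.75 in IL4i1 knockout and 4.07, 3.68 and 4.09 in double knockout. Hoxc6 was below background on all 12 arrays, as were the 7 other Hoxc genes, whose SD over the arrays ran from 0.14 for Hoxc11 to 0.32 for Hoxc8.

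In the Hoxd cluster, Hoxd8 read 5.14, 4.68 and 5.07 in wild type, 5.04, 5.22 and 5.08 in LAO1 knockout, 4.93, 5.30 and 5.27 in IL4i1 knockout and 5.55, 4.95 and 4.92 in double knockout. Hoxd10 read 2.75, 2.64 and 2.90 in wild type, 3.61, 4.48 and 3.0 in LAO1 knockout, 3.98, 3.05 and 3.60 in IL4i1 knockout and 3.70, 2.93 and 3.08 in double knockout. Hoxd11 read 3.52, 2.28 and 2.89 in wild type, 3.33, 4.68 and 2.71 in LAO1 knockout, 4.87, 2.64 and 4.85 in IL4i1 knockout and 3.86, 2.50 and 3.50 in double knockout. Hoxd8 was steady (SD 0.22), while Hoxd10 and Hoxd11, genes of limb and kidney whose promoters are printed above, stayed below background and were highest on LAO1 knockout replicate 2 and IL4i1 knockout replicate 1, respectively. Their RefSeq gene models overlap. Hoxd13, the last gene of the cluster, read 4.81 on IL4i1 knockout replicate 3, and its other 11 readings ran up to 3.32.

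No Hox gene passed an adjusted p of 0.05 in any comparison of genotypes (limma over all 22206 probes, Benjamini-Hochberg adjustment). Single knockouts, the double knockout and wild type were compared in all 6 pairs, and a further contrast asked whether the 2 deletions add on the log2 scale. Comparisons that share arrays are not independent of each other. The median difference over the 33 Hox genes was 0.06 in double knockout against wild type (0.0033 over all probes), 0.057 in LAO1 knockout (0.0067) and 0.16 in IL4i1 knockout (0.027).

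For double knockout against wild type, 0 of 33 Hox genes passed the adjusted threshold, where 0.0225% of all probes did, and 0 had an unadjusted p under 0.05, where 7.44% of all probes did. The smallest p belonged to Hoxa3, lower by a log2 difference of -0.60 (SE 0.287, adjusted p = 0.684 by limma). Hoxa4 differed by 0.35 (SE 0.194, limma adjusted p = 0.742) and Hoxc6 by 0.34 (SE 0.19, limma adjusted p = 0.743). Groups did not overlap for 5 Hox genes, Hoxa4, Hoxc11 and Hoxd10 above wild type and Hoxa3 and Hoxb8 below it, against a background of 11.6% of all probes. Of the genes named so far for this comparison, Hoxb8, Hoxc6, Hoxc11 and Hoxd10 were above the olfactory receptor level on no array. Hoxb13 differed by 0.90 (SE 1.1, 95% interval -1.47 to 3.27) and Hoxb6 by -0.44 (SE 0.817), both with overlapping groups. Both signs rest on double knockout replicate 3, since without it Hoxb13 differed by -0.058 and Hoxb6 by 0.24, and without wild type replicate 2 Hoxb13 differed by 0.13.

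For LAO1 knockout against wild type, 0 of 33 passed (0.0045% of all probes) and 3 had an unadjusted p under 0.05 (3.02% of all probes). Hoxd10 was higher by 0.93 (SE 0.348), Hoxa5 lower by -0.76 (SE 0.297) and Hoxc9 lower by -0.55 (SE 0.224), each with a limma adjusted p of 1. In each of these 3 the groups did not overlap, which 8.53% of all probes also showed. Hoxd10 lay below background in every array of both groups. Hoxb13 differed by 0.79 (95% interval -1.58 to 3.15) and Hoxb6 by 0.50, both with overlapping groups. Single arrays carry both values: Hoxb13 differed by 0.02 without wild type replicate 2 and by 0.037 without LAO1 knockout replicate 1, and Hoxb6 by -0.46 without LAO1 knockout replicate 2 and by -0.01 without wild type replicate 1.

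For IL4i1 knockout against wild type, 0 of 33 passed (0.0135% of all probes) and 2 had an unadjusted p under 0.05 (7.58% of all probes). Hoxb7 was higher by 0.56 (SE 0.232, limma adjusted p = 0.622) and Hoxd10 by 0.78 (SE 0.348, limma adjusted p = 0.647), in each case without overlap of the groups, as for 11.1% of all probes. Hoxd11, next by p, differed by 1.22 (SE 0.618, limma adjusted p = 0.666). Hoxd10 and Hoxd11 lay below background on every array. Hoxb13 had the largest difference of any Hox gene here, 1.59, with an interval from -0.78 to 3.96 (limma adjusted p = 0.743). It was 0.82 without wild type replicate 2 and 0.81 without IL4i1 knockout replicate 3.

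**Figure D3:**
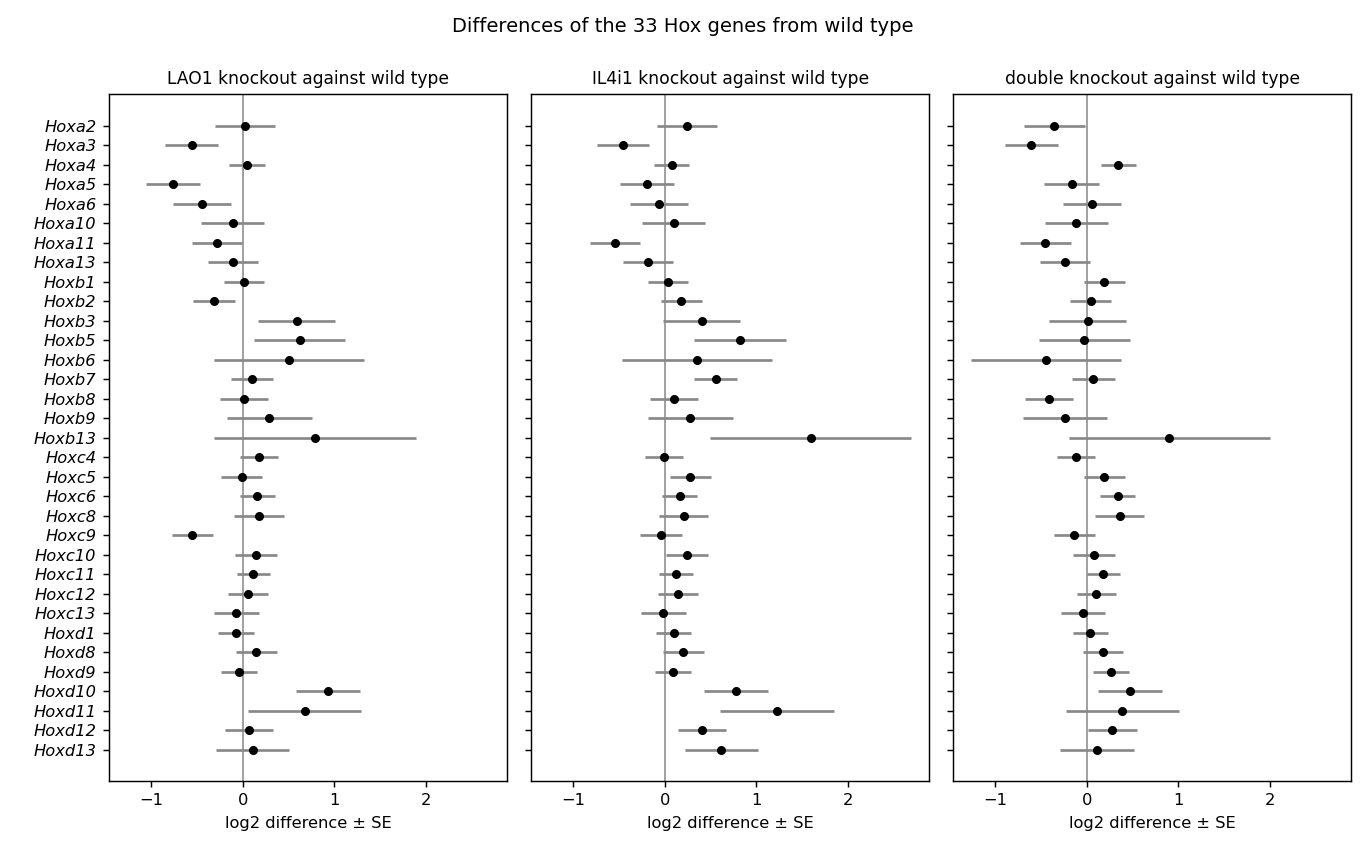
Log2 difference from wild type (horizontal axis, point) with its standard error (line) for the 33 Hox genes in the LAO1 knockout, the IL4i1 knockout and the double knockout, from the limma fit over all 12 arrays. The widest lines are those of Hoxb13 (SE 1.1) and Hoxb6 (SE 0.817), and no point passed an adjusted p of 0.05.

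The knockouts were also set against each other. In double knockout against LAO1 knockout 0 of 33 Hox genes passed (0.14% of all probes) and 0 had an unadjusted p under 0.05 (7.15%). The smallest p values belonged to Hoxa5 (0.60 higher), Hoxc9 (0.41 higher) and Hoxb8 (a log2 difference of -0.42), and 4 Hox genes had groups that did not overlap (12.7% of all probes). Against IL4i1 knockout, the double knockout again had 0 of 33 past the threshold (0.477% of all probes) and 0 unadjusted (9.83%). Hoxb7 (-0.48), Hoxb8 (-0.51) and Hoxa2 (-0.60) came nearest, and Hoxb7 and Hoxb8 did not overlap (12.7% of all probes). Hoxb8 lay below background on every array. Between LAO1 and IL4i1 knockout 0 of 33 passed (0.0045%) and 2 were lower in LAO1 knockout at an unadjusted p under 0.05 (5.84%), Hoxc9 by -0.51 and Hoxb2 by -0.49. Hoxb7, next by p, differed by -0.46. Groups did not overlap for Hoxb2 and Hoxb7 (11.3% of all probes).

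The contrast for additivity (the effect of deleting both genes minus the sum of the 2 single effects) gave 0 of 33 past the threshold, where 0.23% of all probes passed, and 1 at an unadjusted p under 0.05, where 7.12% of all probes did. That gene was Hoxd10, below background on every array, with -1.24 (SE 0.493, limma adjusted p = 0.616). Hoxb5 followed with -1.47 (SE 0.703, limma adjusted p = 0.714) and Hoxa5 with 0.79 (SE 0.42, limma adjusted p = 0.762). For Hoxb13 the contrast was -1.48 (SE 1.55, limma adjusted p = 0.908).

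Hox genes were then compared with each other over the 12 arrays, among the 17 above background on at least 1 array. These are correlations over 12 points that share arrays and normalisation, given as a description. Of 136 pairs, the 3 with the highest Pearson r were Hoxb3 with Hoxb6 (0.921), Hoxb5 with Hoxb6 (0.917) and Hoxb3 with Hoxb5 (0.917). Within genotypes, after removal of each genotype's mean, these were 0.936, 0.956 and 0.926. The median r was 0.197 over the 49 pairs inside a cluster and 0.0291 over the 87 pairs across clusters. Hoxb5 and Hoxb6 gene models do not overlap in RefSeq, nor do those of Hoxb3 and Hoxb5.

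Hoxb13 was negatively correlated with these genes. Its r was -0.659 with Hoxb6 (Spearman rho -0.727), -0.512 with Hoxb3 and -0.447 with Hoxb5, and within genotypes it was -0.793, -0.725 and -0.747. The lowest r of all pairs was with Hoxa11 (-0.679), followed by that of Hoxb6, Hoxa2 (-0.562) and Hoxb3. Without the 2 arrays farthest from the median of Hoxb13, r with Hoxb6 was -0.459 and with Hoxa11 -0.592. On 5 of the 6 arrays where Hoxb13 exceeded background the mean of Hoxb3, Hoxb5 and Hoxb6, each taken from its own mean, was below 0, and on 4 of the 6 others it was above 0. The exception among the Hoxb13-high arrays was IL4i1 knockout replicate 1, at 0.98, where Hoxb13 (5.98) and Hoxb6 (6.52) were both above background. Without that array r of Hoxb13 with Hoxb6 was -0.801. Hoxa13, of the same paralog group as Hoxb13, had an r of -0.122 with it. Hoxd13, below background on all 12 arrays, had 0.652.

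The genes outside the Hox family most like Hoxb13 over the arrays, of 19472 genes ranked by Pearson r, were Gal3st2b (0.957), Atp12a (0.94), Gal3st2 (0.928), 9030619P08Rik (0.927) and B3gnt7 (0.926), and 41 genes had an r over 0.8. Gal3st2 and Gal3st2b are sulfotransferases that act on galactose, B3gnt7 adds N-acetylglucosamine to glycans, and Atp12a is the colonic proton and potassium pump. Atp12a read 8.50, 4.48 and 4.81 in wild type, 7.54, 4.42 and 6.63 in LAO1 knockout, 7.83, 5.57 and 11.38 in IL4i1 knockout and 4.76, 5.46 and 11.04 in double knockout. Gal3st2b read 7.90, 3.75 and 5.31 in wild type, 8.62, 4.38 and 7.25 in LAO1 knockout, 8.48, 5.0 and 10.12 in IL4i1 knockout and 4.48, 4.92 and 7.83 in double knockout. On the 6 arrays with Hoxb13 above background both genes read above their values on all other arrays. Gal3st2 and Gal3st2b resemble each other, so their probes may not separate the 2 genes.

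Lowest in r to Hoxb13 were Cth (-0.905), Alpi (-0.891), Adra2c (-0.864), Scarb2 (-0.842) and Apol7a (-0.833), and 18 genes had an r under -0.8. Cth makes cysteine from cystathionine, Alpi is the intestinal alkaline phosphatase and Scarb2 is a lysosomal membrane protein. Alpi read 8.86, 10.47 and 9.62 in wild type, 6.72, 9.91 and 8.07 in LAO1 knockout, 8.66, 8.82 and 5.38 in IL4i1 knockout and 9.24, 9.14 and 7.28 in double knockout. Alpi was lowest on IL4i1 knockout replicate 3, where Hoxb13 was highest. Adra2c was below background on all 12 arrays.

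Of 5 measured genes listed for the distal colon, Atp12a and Insl5 followed Hoxb13 (r 0.94 and 0.89), Pyy did so less closely (0.55), and the sodium channel subunit Scnn1b, above background on 9 arrays, did not (-0.0584). The subunit Scnn1g was below background on all 12 arrays, so its r is not read. Insl5 is a hormone of colonic enteroendocrine cells. Insl5 read 7.41, 5.46 and 6.25 in wild type, 7.08, 5.72 and 6.95 in LAO1 knockout, 7.24, 5.81 and 8.44 in IL4i1 knockout and 5.10, 5.95 and 7.0 in double knockout. All 6 arrays with Hoxb13 above background had an Insl5 reading above that of every other array. The list's mean over its 5 genes had an r of 0.929 with Hoxb13 and ran from 4.93 to 7.38. Atp12a, whose SD was 2.45 against 0.973 for Insl5, the next widest, weighs most in that mean.

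**Figure D4:**
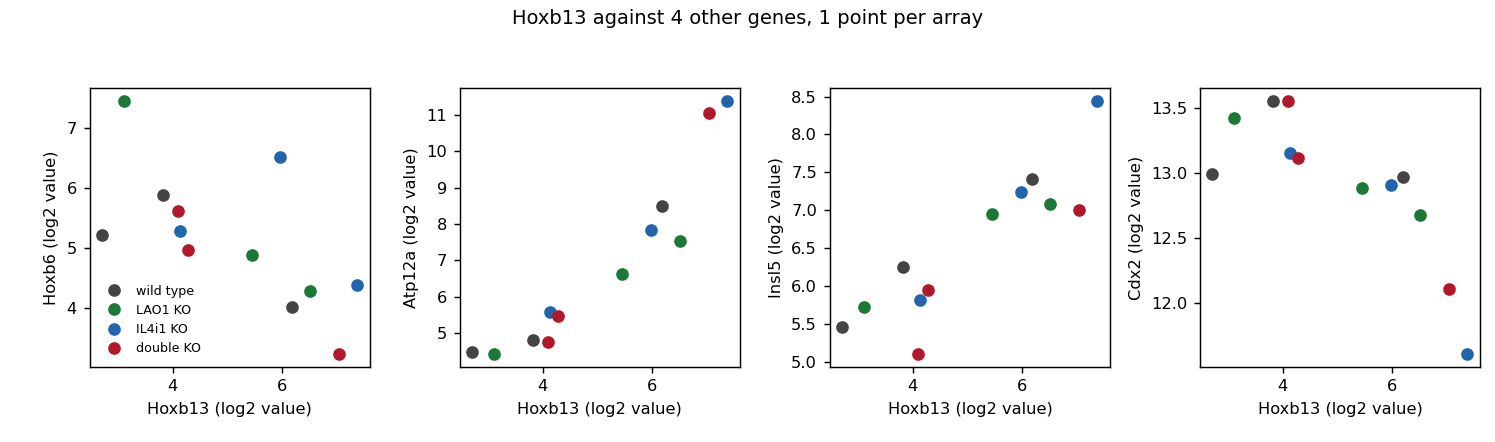
Hoxb13 (horizontal, log2 value) against Hoxb6, Atp12a, Insl5 and Cdx2 (vertical, log2 value), 1 point per array, coloured by genotype. Each genotype has points at low and at high Hoxb13, Atp12a and Insl5 go up with Hoxb13, and Hoxb6 and Cdx2 go down.

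The caudal factors, which act upstream of Hox genes, were measured on the same arrays. Cdx2 read 12.97, 12.99 and 13.55 in wild type, 12.68, 13.42 and 12.88 in LAO1 knockout, 12.91, 13.15 and 11.61 in IL4i1 knockout and 13.55, 13.11 and 12.11 in double knockout. The r of Cdx2 was -0.801 with Hoxb13 and 0.643 with Hoxb6, and Cdx2 was lowest on IL4i1 knockout replicate 3 and double knockout replicate 3, the 2 arrays with the highest Hoxb13. Without these 2 arrays, which lay farthest from the median of Hoxb13, the r of Cdx2 with Hoxb13 was -0.662. Without the 2 arrays farthest from the median of Hoxb6, its r with Hoxb6 was 0.505. For Cdx1 the r with Hoxb13 was 0.263. None of the 6 caudal and parahox genes had an unadjusted p under 0.05 against wild type in any knockout.

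Genes like Hoxb6 were also ranked, a choice made after its values were seen. Ntrk2 (0.984), the receptor of a neurotrophin, Ugt2b5 (0.934), a glucuronosyltransferase, Atp11a (0.91), a phospholipid flippase, Ugdh (0.906), which makes the sugar donor for glucuronidation, and Slc13a1 (0.881), a sulfate transporter, were at the top, and 38 genes had an r over 0.8. Ntrk2 read 3.72, 4.79 and 5.31 in wild type, 3.65, 6.51 and 4.15 in LAO1 knockout, 5.93, 4.68 and 3.68 in IL4i1 knockout and 4.75, 4.02 and 2.96 in double knockout. Slc13a1 read 7.27, 7.57 and 7.89 in wild type, 6.96, 9.88 and 8.50 in LAO1 knockout, 8.93, 8.64 and 7.27 in IL4i1 knockout and 8.68, 7.02 and 6.56 in double knockout. Ntrk2 exceeded background on 4 arrays, whereas Slc13a1 did so on all 12, and both were highest on LAO1 knockout replicate 2.

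Among gut regional factors, picked after their values were seen, the odd-skipped gene Osr2 had an r of 0.749 with Hoxb6, Tbx3 0.757 and Isl1, a stomach and pancreas factor, -0.767. The other gut regional factors measured ran from -0.286 for Sox2 to 0.395 for Barx1. Osr2 and Isl1 were each above background on 3 arrays only. Osr2 read 4.08, 3.62 and 4.85 in wild type, 3.64, 9.86 and 3.61 in LAO1 knockout, 9.07, 3.26 and 4.78 in IL4i1 knockout and 9.03, 3.86 and 3.89 in double knockout. Slc10a2, the bile acid transporter of the ileum, had an r of 0.735. Slc10a2 read 4.89, 5.26 and 5.06 in wild type, 4.89, 10.57 and 3.28 in LAO1 knockout, 12.59, 5.28 and 4.34 in IL4i1 knockout and 9.94, 3.11 and 4.27 in double knockout. Osr2 and Slc10a2 were high on the same 3 arrays, LAO1 knockout replicate 2, IL4i1 knockout replicate 1 and double knockout replicate 1, and on no wild type array. Aldh1a1, a retinaldehyde dehydrogenase, had an r of 0.857 with Hoxb6, the highest of the retinoid genes measured. The others ran from -0.434 for Stra6 to 0.511 for Rxra. Of the 11 ileum and foregut genes measured, none passed the adjusted threshold in any comparison, and the r of the 10 other than Slc10a2 with Hoxb6 ran from -0.235 for Ghrl to 0.382 for Apob.

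The other gene lists were described by their counts. Of the TALE cofactors, which bind DNA together with Hox proteins, 10 of 11 were measured and 7 were above background on all arrays. None passed the adjusted threshold in any of the 7 comparisons, and their median differences from wild type were -0.11 in double knockout, -0.11 in LAO1 knockout and 0.05 in IL4i1 knockout. Against wild type, 1 of 10 had an unadjusted p under 0.05 in LAO1 knockout (3.02% of all probes), Pbx4, which was below background on all arrays. In IL4i1 knockout it was 1 of 10 (7.58% of all probes), Tgif1 (-0.70, SE 0.221, limma adjusted p = 0.533), and in double knockout 0 of 10.

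The chromatin regulators of Hox genes, 20 of 22 measured and 18 above background on all arrays, likewise had 0 past the adjusted threshold in all 7 comparisons. Against wild type, an unadjusted p under 0.05 was found for 1 of 20 in double knockout (7.44% of all probes), Ezh2, the Polycomb methyltransferase (0.54). In IL4i1 knockout it was 2 of 20 (7.58% of all probes), Cbx2 (0.44) and Jarid2 (-0.54), and in LAO1 knockout 0 of 20. These shares are near those of all probes. Of 16 retinoid genes measured none passed. Unadjusted, 2 of 16 were lower in double knockout (7.44% of all probes in either direction), Dhrs3 (-0.83) and Cyp26b1, which was below background on all arrays, and 1 of 16 was higher in IL4i1 knockout (7.58%), Rarg (0.52). Of 14 gut regional factors none passed, and 2 had an unadjusted p under 0.05 against wild type, both in IL4i1 knockout (7.58% of all probes), namely Gata6 (-0.61) and Gata5, which was below background on all arrays. Evx1 and Evx2, which lie beside the Hoxa and Hoxd clusters, were below background on all arrays. Of 12 noncoding transcripts listed for the clusters, Hoxa11os and Hoxd3os1 were measured, and neither passed. The Hoxa11os gene model overlaps that of Hoxa11 in RefSeq, and whether their probes share signal was not tested. Hoxa11os read 7.22 to 9.01, above background on all 12 arrays. Its r with Hoxb13 was 0.262, where that of Hoxa11 was -0.679.

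Marker lists were read for the cell types in the samples, which do not tell colon from other gut. All 10 epithelial and all 10 smooth muscle markers were above background on all 12 arrays, and in such bulk samples fewer cells of a type and less RNA per cell cannot be told apart. The epithelial list's mean ran from 15.7 to 16.9, the smooth muscle list's from 13.2 to 15.0 and the fibroblast list's from 8.90 to 10.7, with an r to Hoxb13 of -0.359, -0.354 and -0.288. Pancreatic acinar markers averaged 3.86 to 4.67 on 11 arrays and 16.1 on double knockout replicate 2, and their part in the Hox results was not tested beyond leaving that array out, which left 0 Hox genes past the threshold in all 7 comparisons. The leukocyte list ran from 5.22 on IL4i1 knockout replicate 2 to 7.14 on wild type replicate 1, with an r to Hoxb13 of 0.404. The enteric neuron and glia list ran from 4.87 to 5.67, the adipocyte list from 4.31 to 5.61 and the endothelial list from 5.57 to 6.86. Of the markers, Lgals4 alone passed in a comparison, 1.58 higher in double knockout than in LAO1 knockout (limma adjusted p = 0.0218). In double knockout against IL4i1 knockout, 4 of 10 smooth muscle markers were lower at an unadjusted p under 0.05 (limma) and 0 higher. The list's median was -0.93, and 9.83% of all probes had such a p. Against wild type, 2 of 10 were lower and 0 higher in double knockout (7.44% of all probes, median -0.54). In the additivity contrast, 4 of 9 leukocyte markers were higher and 0 lower (7.12% of all probes, median 1). The bearing of these shifts on the Hox readings was not tested. Il4i1 was not analysed here, and Lao1 was below background on all 12 arrays (3.0 ± 0.318 in wild type and 3.01 ± 0.291 in LAO1 knockout, SD, n = 3), so these readings check no genotype label.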

How the data were processed

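Colon RNA from 12 mouse samples (3 per genotype) was hybridised to Affymetrix arrays, 1 array per sample, from 6 µg of total RNA per the labels. The deposited values are log2 expression values per probe, made by the authors with the Transcriptome Analysis Console per the submitters' processing notes. Its version, the background correction, the normalisation and the genome build are not given in the sources used here. Array medians ran from 5.42 to 5.49, and no scanner files or detection calls were used, so the number of arrays limits the precision.

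Probes were named through the platform annotation (19572 of 22206 with 1 symbol, 0 with several, 2634 with none) and Hox symbols were checked against RefSeq by Entrez number. The deposited values were fitted without further scaling in limma 3.58.1 (R 4.3.3), with a mean per genotype over all 12 arrays (8 residual degrees of freedom), empirical Bayes variances, two-sided tests and Benjamini-Hochberg adjustment over all probes. The script was tested on simulated data. Figures were drawn with matplotlib 3.10.9. Correlations are Pearson's over 12 arrays and carry no p.

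Array values are given for Hox genes of paralog groups 11 to 13 above background on any array, the 3 Hox genes of smallest p in each comparison, the 5 of largest SD and the highest reading of each cluster. For the Hox gene of largest SD, the 5 genes with the highest and the 5 with the lowest r are named. Hoxa10, Hoxb3 and Hoxd13, the genes ranked against Hoxb6, and single genes picked from the lists were named after their values were seen. The members and lists were chosen with earlier results of these data known. Alternatives covered scaling, dim probes, the arrays in the fit, the variance model, the replicate number, each array left out and the background level.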

Additional observations from a re-analysis of the deposited data

How the results depend on the processing

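No Hox gene passed an adjusted p of 0.05 (limma) in any of the 7 comparisons under quantile normalisation, median centring, removal of dim probes, the trend and robust variance model, or removal of any 1 array. The same held with Hoxb13 as a covariate, an alternative chosen after seeing the data, and, for the 6 pairwise comparisons, with only the compared arrays in the fit, which could not be done for the contrast of additivity. In each comparison the 3 Hox genes of smallest p kept their direction and stayed short of the threshold under every alternative in which the gene was tested. The differences of Hoxb13 and Hoxb6 also stayed short of it, but some signs turned. In double knockout against wild type, without double knockout replicate 3, Hoxb13 went from 0.90 to -0.058 and Hoxb6 from -0.44 to 0.24, and with Hoxb13 as a covariate Hoxb6 was 0.087. In LAO1 knockout against wild type Hoxb6 went from 0.50 to -0.01 without wild type replicate 1 and to -0.46 without LAO1 knockout replicate 2. Leaving out 1 array moved Hoxb13 between -0.058 and 1.88 in double knockout, 0.02 and 1.77 in LAO1 knockout and 0.81 and 2.57 in IL4i1 knockout, each against wild type, and between -2.46 and -0.70 in the additivity contrast. Hoxb6 moved between -0.95 and 0.24 in double knockout and between -0.46 and 1.13 in LAO1 knockout. The cause was not tested. The count of Hox genes above background on all arrays was 10, and it was 11 with the 90th percentile, 7 with vomeronasal receptor probes and 5 with the 99th percentile of olfactory receptor probes. Each Hox gene has 1 probe, so the lowest-mean probe gave no other value and was not run.

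With the replicate number as a block, 0 Hox genes passed in each comparison. Whether same-numbered arrays belong together was not settled. Of 18 same-numbered pairs, 7 had a correlation of deviations from the genotype means over 0.1. The correlations of same-numbered pairs ran from -0.142 to 0.219, and those of the other pairs from -0.315 to 0.287.

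Counts over all probes moved more. Double knockout against wild type gave 5 probes, and 11 with the trend and robust model, 2 with the compared arrays alone and 38 without double knockout replicate 2. Double knockout against IL4i1 knockout gave 106, and 166 with the replicate block, 33 with the compared arrays alone, 174 without double knockout replicate 2 and 46 without double knockout replicate 1. IL4i1 knockout against wild type gave 3, and 8 with the trend and robust model. LAO1 against IL4i1 knockout gave 1, and 3 with that model or the replicate block and 0 with the compared arrays alone. Over the fits without 1 array, LAO1 knockout against wild type (1) ran from 1 to 4, double knockout against LAO1 knockout (31) from 11 to 68 and the additivity contrast (51) from 37 to 74. Readings below the olfactory receptor level, which include 16 Hox genes on every array, limit what can be said of those genes.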
